A study of Homo sapiens with 12 samples.

Results

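The genes described here are 5 regulators of the passage from G1 into S phase, CCND1, CDK2, E2F1, E2F7 and CDC25A, out of 14582 named genes on the arrays. They were taken by name, with earlier results of these data known. Each was read from the only probe set named for it (16728261, 16752305, 16918445, 16767851 and 16953279, in that order). RNA came from SK-MEL-2 (SKMEL2), an established human melanoma cell line, and was hybridised to 12 Affymetrix arrays after 24 hours of treatment. The 4 groups held 3 arrays each. One group received the vehicle DMSO. Group DT received 100 nM dabrafenib, an inhibitor of RAF kinases, together with 10 nM trametinib, which blocks the kinases MEK1 and MEK2. Group E received 1 µM entinostat, which acts on histone deacetylases of class I, and group DTE all 3 drugs. All groups are cultures of this same line, the titles name biological replicates where the series text has technical ones, and the p-values therefore cover only the spread between these arrays.

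Entry into S phase is controlled by cyclin-dependent kinases that act on the retinoblastoma protein, RB. Growth factor signalling through RAS, RAF, MEK and ERK induces cyclin D1, the product of CCND1, which activates CDK4 and CDK6 and starts the phosphorylation of RB. CDK2 with cyclin E completes it, and CDC25A is the phosphatase that removes the inhibitory phosphates from CDK2. Phosphorylated RB releases the E2F factors. E2F1 activates genes of DNA replication, and E2F7 is an atypical E2F that represses many of the same genes later in S phase. E2F1, E2F7, CDC25A and CDK2 are themselves known as E2F targets, whereas CCND1 is best known as a target of mitogen signalling. Melanomas depend widely on RAF-MEK-ERK output, which links CCND1 to this pathway in melanocytic cells.

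Values are deposited linear intensities in arbitrary units, and each difference is a log2 difference ± the standard error (SE) of the fit. The threshold is an adjusted p of 0.05 in limma's moderated test, with Benjamini-Hochberg adjustment over all 14582 genes, and "rose" and "fell" refer to it. The arrays were not on a common level. The geometric mean intensity of genes above the median gene was lowest in DTE, at 65.5 ± 3.78 (SD, n = 3), followed by DT at 103 ± 7.22, DMSO at 129 ± 15.0 and E at 143 ± 18.7. Each difference is therefore also given after quantile normalization of the arrays, as the quantile value. Of 8 melanocyte lineage genes 7 were measured and all 7 were above background in DMSO, from TYRP1 at 20.1 to S100B at 2542. With DT 4 of them fell, led by MITF (-2.09, quantile -1.75), and 1 rose, TYRP1 (0.81, quantile 0.89). In quantile values 3 were lower and 3 higher. Of all 14582 genes 3368 were called lower and 688 higher with DT in deposited values, and 2188 and 2135 in quantile values. Of 8 markers of keratinocytes, blood, endothelium and fibroblasts 3 were measured. KRT5 lay at 5.63 in DMSO, not above background, while KRT14 at 25.6 and VWF at 14.2 were above it, and KRT14 rose with DT (0.70, quantile 0.80). The part of these markers in the results was not tested. All 5 genes were above the background reference of 11.5 to 15.0 in every group, with CDC25A in DTE closest to it, at 22.6 ± 3.58 against 11.5.

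All 5 genes fell after dabrafenib plus trametinib, in deposited and in quantile values. In this comparison 27.8% of all genes passed the threshold, with 23.1% called lower, and after quantile normalization 15.0% were called lower. CDK2, E2F1, E2F7 and CDC25A dropped to between 25.9% and 29.8% of their DMSO means, and CCND1 to 38.8%. The median difference was -0.12 over all genes, against -1.37 to -1.94 for these 5. In bulk RNA a smaller share of cells that express a gene and less of its RNA per cell cannot be told apart.

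CCND1, which encodes the mitogen-induced activator of CDK4 and CDK6, stood at intensities of 587, 571 and 534 on the DMSO arrays and at 225, 192 and 239.6 on the DT arrays. Every DT array was below every DMSO array, as was also seen for 29.7% of all genes. The fall was 2.59-fold (-1.37 ± 0.14, adjusted p = 1.03e-07, quantile -1.04), the smallest of the 5.

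CDK2, the kinase that acts with cyclins E and A, stood at 538, 554 and 407 in DMSO and at 132, 117 and 139 in DT. The groups were far apart, with the highest DT array at 139 and the lowest DMSO array at 407. The fall of CDK2 was 3.83-fold (-1.94 ± 0.15, adjusted p = 1.73e-09, quantile -1.59). It ranked 39 of 14582 from the most negative difference. CDC25A, which encodes the phosphatase that activates CDK2, read 106, 88.7 and 89.5 in DMSO and 29.5, 26.0 and 29.3 in DT, with a wide gap between the groups. The fall was 3.35-fold (-1.74 ± 0.15, adjusted p = 3.73e-09, quantile -1.41).

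E2F1, the activator E2F, read 294, 323 and 245 in DMSO and 82.3, 58.6 and 91.0 in DT. The DT arrays spread more widely on the log2 scale than those of the other groups (SD 0.33, against 0.12 to 0.20), with the second DT array lowest, and stayed below all DMSO arrays. The fall was 3.76-fold (-1.91 ± 0.16, adjusted p = 3.88e-09, quantile -1.54). E2F7, the atypical repressor, read 182, 189.9 and 137 in DMSO and 51.6, 43.5 and 52.5 in DT. Its groups were again far apart, with a 3.42-fold fall (-1.78 ± 0.14, adjusted p = 2.40e-09, quantile -1.41). The activator and the repressor of the E2F family thus fell by like amounts, with differences of -1.91 and -1.78.

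**Figure D1:**
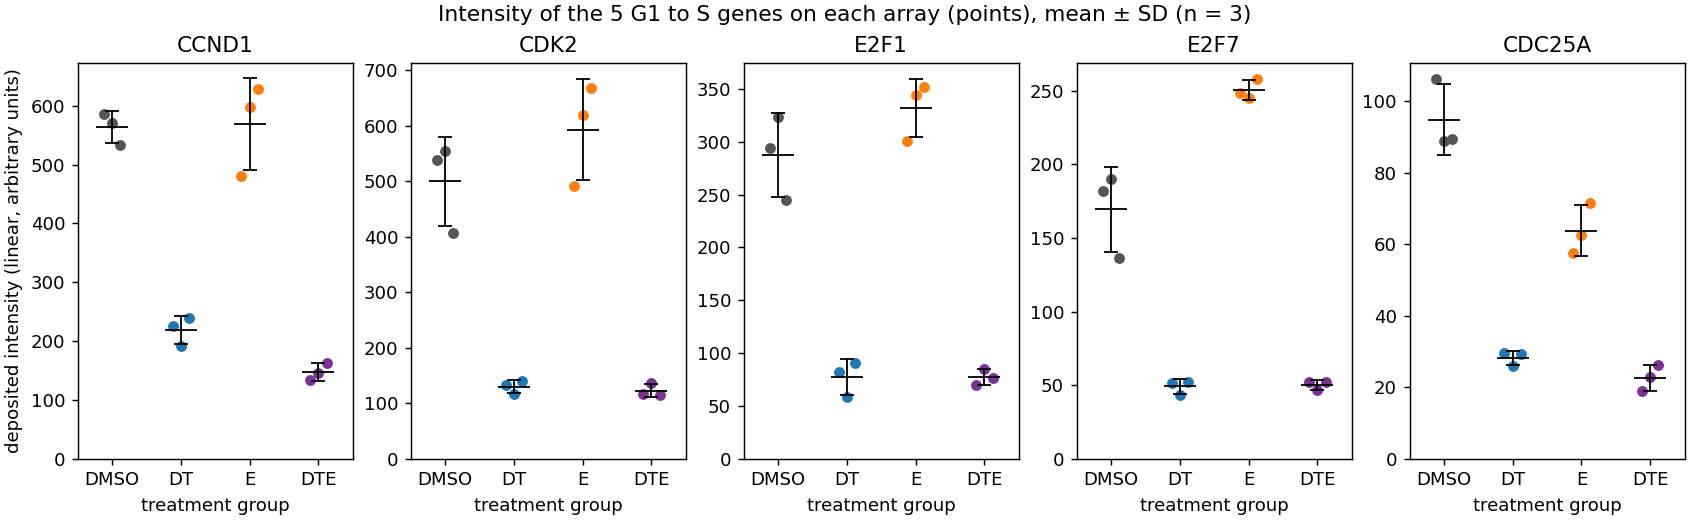
Deposited intensity (linear axis from 0, arbitrary units) of CCND1, CDK2, E2F1, E2F7 and CDC25A in the 4 treatment groups. Points are arrays and black bars are the mean ± SD (n = 3). The DT and DTE arrays of each gene lie below all of its DMSO and E arrays, E2F7 is highest in E (251 ± 6.63), and CDC25A in E (63.8 ± 7.10) lies between DMSO (94.8 ± 9.92) and DT (28.2 ± 1.99).

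Promoter sequence was given for 3 of the 5 genes, E2F1, E2F7 and CDC25A, from RefSeq on GRCh38.p14. The 140 bases before the gene start are printed 5′ to 3′ because these genes fell together and are known as E2F targets. All 3 lie on the minus strand, E2F1 at chr20:33686386-33686525, E2F7 at chr12:77065570-77065709 and CDC25A at chr3:48188418-48188557. Capitals mark, on either strand, an E2F word (TTTCCCGC, TTTCGCGC, TTTGCCGC or TTTGGCGC) or a CCAAT box (CCAAT, which reads ATTGG on the other strand).
E2F1: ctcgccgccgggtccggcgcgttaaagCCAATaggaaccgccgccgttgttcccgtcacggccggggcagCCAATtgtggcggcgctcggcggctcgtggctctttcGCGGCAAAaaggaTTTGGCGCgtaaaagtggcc
E2F7: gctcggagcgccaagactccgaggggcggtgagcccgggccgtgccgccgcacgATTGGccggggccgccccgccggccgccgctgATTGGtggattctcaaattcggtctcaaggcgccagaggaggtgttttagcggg
CDC25A: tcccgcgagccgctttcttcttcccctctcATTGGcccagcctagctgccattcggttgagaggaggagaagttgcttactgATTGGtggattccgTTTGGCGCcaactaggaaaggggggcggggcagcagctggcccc
The E2F1 window holds TTTGGCGC from base 20 to base 13 before the start and TTTGCCGC on the other strand from base 33 to base 26. The CDC25A window holds TTTGGCGC from base 44 to base 37. None of the 4 words stands in the 250 bases before the start of E2F7, which says only that these letters are not there. An E2F word was found in 2.79% of the 27305 promoters searched over the same 250 bases. CCAAT boxes stand in all 3, with 3 in E2F1, 4 in E2F7 and 2 in CDC25A over 250 bases, and in 33.0% of all promoters. The E2F7 and CDC25A promoters share a run of 15 bases around a CCAAT box, ctgattggtggattc, which starts 57 bases before E2F7 and 61 bases before CDC25A. Of the 27305 promoters, these 2 alone held that run on either strand. The letters, and the search for shared runs, were chosen after the sequences had been read, and a match is a description of the window, not a shown binding site.

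The other genes of the G1 to S pathway were read from a list of 58 genes in 7 role groups, of which 43 were measured. SKP1, counted among the 43, was not above the background reference in any group. With DT 36 of the 43 fell and 0 rose, where 23.1% of all genes were called lower. The median over the list was -1.03. Without the 5 genes above, 31 of 38 fell, with a median of -0.92, against -0.12 over all genes. In quantile values 33 of the 43 were lower and 1 was higher, with a median of -0.78, where 15.0% of all genes were called lower. Both shares also apply to the role groups below. CDK2, E2F1, E2F7 and CDC25A took places 1, 2, 4 and 5 among the 43 from the most negative difference, and CCND1 took place 16. The 5 genes and the list were chosen with earlier results of these data known, so these places are no independent support.

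Among the D-type cyclins and their kinases 4 of 5 fell. CDK4, a kinase partner of cyclin D1, fell from 991 ± 135 to 487 ± 26.0 (SD, n = 3), a difference of -1.02 ± 0.14 (quantile -0.71). CCND3, another D-type cyclin, fell by less (-0.58, quantile -0.43), and CDK6 fell in deposited values (-0.51, adjusted p = 0.030) with a quantile value of -0.15 (adjusted p = 0.43). CCND2 measured -0.13 (adjusted p = 0.67). All 7 measured genes of the cyclin E and A group fell. They included CCNA2, the S and G2 cyclin (-1.31, quantile -0.98), and CCNE2, a cyclin E (-1.48, quantile -1.25). Its relative CCNE1 fell in deposited values (-0.42, adjusted p = 0.030) but measured -0.06 in quantile values (adjusted p = 0.62).

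Of the E2F and DP factors 6 of 7 fell. E2F8, the other atypical E2F, fell by 1.83 on the log2 scale (quantile -1.46), close to E2F7, and E2F3, an activator E2F, measured -1.10 (quantile -0.71). The DP partner TFDP2 measured -0.09 (adjusted p = 0.73) and 0.27 in quantile values (adjusted p = 0.012). In the RB family and the MuvB core, the complex that RB relatives use to repress cell cycle genes, 6 of 8 fell. RBL1, which encodes p107 and is itself known as an E2F target, fell most of them (-1.38, quantile -0.999), whereas RB1 fell in deposited values only (-0.44, quantile -0.08, adjusted p = 0.61). LIN9 (-1.17, quantile -0.85) and LIN52 (-0.96, quantile -0.78), both subunits of MuvB, fell as well.

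In the group of ubiquitin control 4 of 7 fell, among them CKS1B, the cofactor of SKP2 (-1.25, quantile -0.89), FBXO5, the inhibitor EMI1 of the anaphase-promoting complex (-1.16, quantile -0.95), and FBXO4 (-0.89, quantile -0.69). All 8 measured E2F targets of S-phase entry fell, with -1.55 as the median. The largest falls were those of the licensing factor CDC6 (-1.68, quantile -1.33), thymidylate synthase, TYMS (-1.64, quantile -1.35), and the factor MYBL2 (-1.64, quantile -1.27). Of 7 CDK inhibitors only CDKN2A was measured, at 26.7 ± 2.61 in DMSO, and it fell by 0.53 on the log2 scale (quantile -0.43). In DT it read 18.6, against a background reference of 13.1. CDKN1A and CDKN1B were not analysed here.

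**Figure D2:**
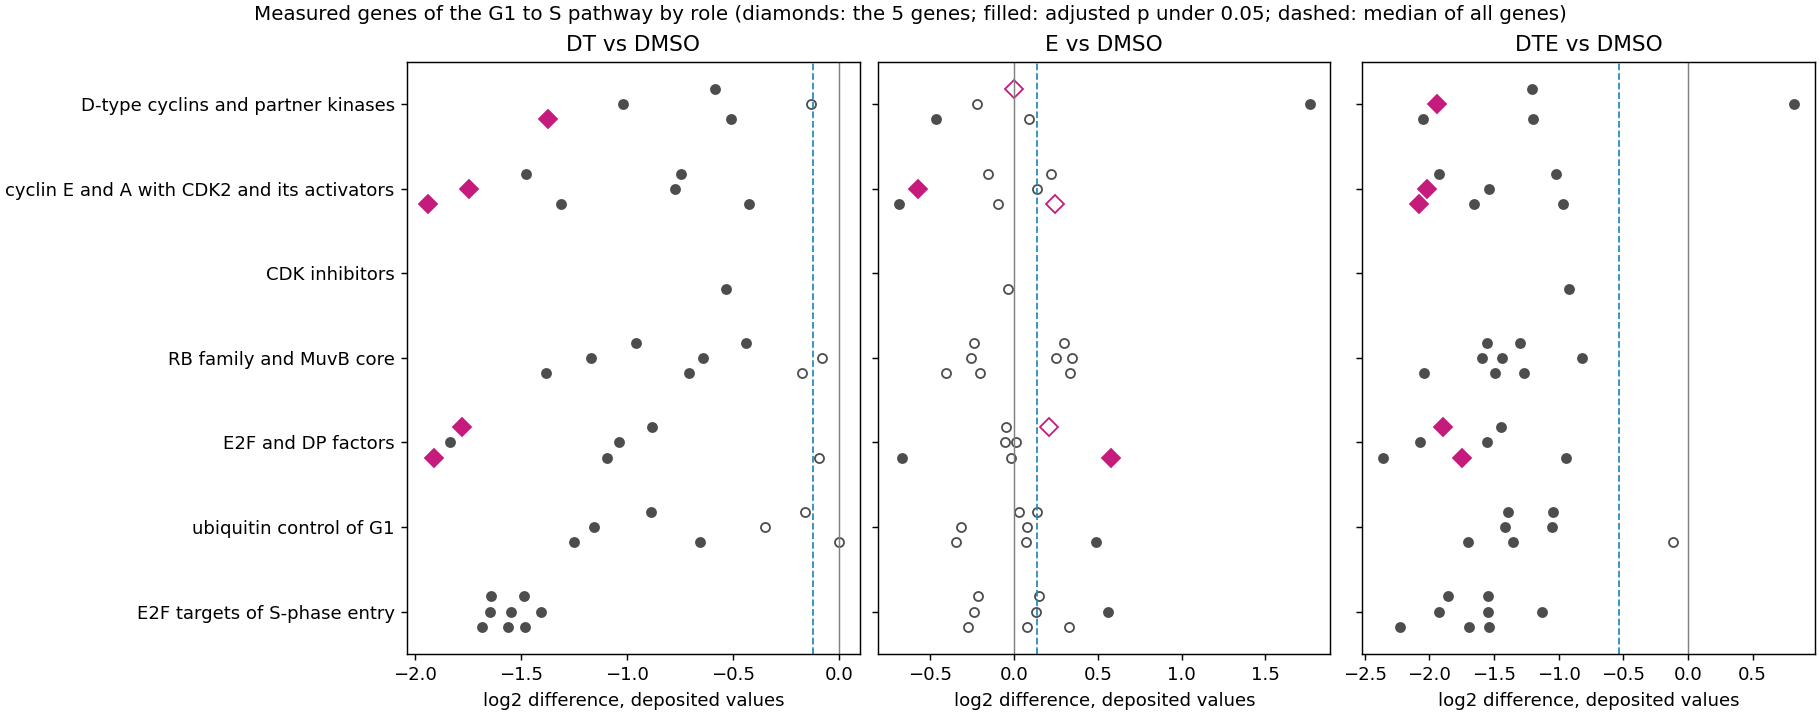
Log2 difference in deposited values (x axis) of the 43 measured pathway genes in 7 role groups (y axis), for DT, E and DTE against DMSO. Diamonds are the 5 genes described, filled symbols passed the threshold of 0.05, and the dashed line is the median of all genes (-0.12, 0.14 and -0.54). With DT the 8 E2F targets lie closest together, between -1.40 and -1.68, and with E most symbols are open.

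Entinostat alone moved these genes in different directions. E2F7 rose, CDC25A fell, and CCND1, CDK2 and E2F1 did not pass the threshold. Of all genes 25.6% were called in this comparison, 20.8% as rises and 4.81% as falls, and the median difference was 0.14. E2F7 read 249, 245 and 258 with entinostat, close together and all above the highest DMSO array, at 189.9. Over all genes 27.0% had every E array above every DMSO array and 5.86% had every E array below. The rise was 1.49-fold (0.58 ± 0.14, adjusted p = 0.0038, quantile 0.49). With each array centred on its median gene it was 0.29 and short of the threshold (adjusted p = 0.058).

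CDC25A read 57.5, 62.4 and 71.5 with entinostat, all below the lowest DMSO array, at 88.7. The fall was 1.49-fold (-0.57 ± 0.15, adjusted p = 0.0048, quantile -0.73). With the arrays centred on their median gene it was -0.86 (adjusted p = 1.9e-05). E2F7 and CDC25A thus moved in opposite directions with entinostat, while both had fallen with DT, and their sizes relative to each other depended on the scaling. The mean level of the E arrays was above that of DMSO (143 against 129), in the direction of E2F7 and opposite to that of CDC25A. The part of this level in either difference was not tested.

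CCND1 read 479.9, 597 and 629 with entinostat, a range that encloses all DMSO arrays. The difference was 0.00 ± 0.14 (adjusted p = 0.99, quantile -0.07), and it was -0.28 with the arrays centred on their median gene (adjusted p = 0.030). CDK2 read 491, 619 and 668, overlapping with DMSO (0.25 ± 0.15, adjusted p = 0.26). In quantile values the E arrays of CDK2, at 421, 468 and 456, all lay above the DMSO arrays, at 407, 412 and 371. How many of all genes had their arrays apart on that scale was not counted. The difference of CDK2 did not pass the threshold (0.18, adjusted p = 0.15). E2F1 read 300.3, 344 and 351, overlapping with DMSO (0.21 ± 0.16, adjusted p = 0.37, quantile 0.15). With the arrays centred on their median gene CDK2 and E2F1 were at -0.04 and -0.07. In the order of deposited levels the E and DMSO arrays of CCND1, CDK2 and E2F1 overlapped, while E2F7 was highest in E and CDC25A highest in DMSO.

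Of the 43 pathway genes 4 fell and 4 rose with entinostat, where 4.81% of all genes were called as falls and 20.8% as rises. The median over the list was 0.01. In quantile values 15 were lower and 3 higher, with a median of -0.10, where 16.2% of all genes were called lower and 15.3% higher. CCND2, the D-type cyclin that did not pass the threshold with DT, rose from 16.9 ± 1.65 to 57.5 ± 9.005 (1.76, quantile 1.34). CDC6 rose as E2F7 did (0.56, quantile 0.54). CCNE2 (-0.69, quantile -0.86), E2F3 (-0.67, quantile -0.76) and CDK4 (-0.47, quantile -0.56) fell beside CDC25A. FBXO5 rose in deposited values (0.49, adjusted p = 0.018) with a quantile value of 0.21 (adjusted p = 0.17).

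With all 3 agents, all 5 genes were again far below DMSO. In this comparison 60.8% of all genes were called lower in deposited values and 23.0% in quantile values, and the overall array level was down as well, at 65.5 against 129. CCND1 read 133, 145 and 163 (-1.94 ± 0.14, quantile -0.88), 26.1% of its DMSO mean, and 54.3% in quantile values. CDK2 read 117, 136 and 115 (-2.02 ± 0.15, quantile -0.96). E2F1 read 69.4, 84.7 and 76.8 (-1.90 ± 0.16, quantile -0.82). All DTE arrays of these 3 genes lay below all their DMSO arrays, as was the case for 63.6% of all genes.

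E2F7 read 52.0, 46.4 and 52.0 (-1.74 ± 0.14, quantile -0.72). CDC25A read 18.9, 22.8 and 26.1 (-2.08 ± 0.15, quantile -1.33), the largest fall of the 5 in both kinds of values. In deposited values the 5 genes lay between -1.74 and -2.08, while in quantile values CDC25A stood apart from the other genes, which lay between -0.72 and -0.96. Of the 43 pathway genes 41 were lower and 1 higher in deposited values, and 32 and 1 in quantile values. Of all genes 60.8% and 23.0% were called lower on these 2 scales. The gene that was higher was CCND2 (0.82, quantile 1.41), at 29.9 in DTE against a DMSO level close to background.

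What entinostat added to dabrafenib plus trametinib depended on how the arrays were put on a common scale. In deposited values CCND1 alone passed the threshold between DTE and DT, and it fell (1 of 5 genes, where 54.0% of all genes were called lower and 4.09% higher). The DTE arrays of CCND1 were all below its DT arrays, as for 59.9% of all genes, with a difference of -0.57 ± 0.14 (adjusted p = 0.0015). After quantile normalization that difference was 0.16 (adjusted p = 0.13). CDK2 measured -0.08, E2F1 0.01 and E2F7 0.03 in deposited values, and their DTE and DT arrays overlapped. Over all genes the median was -0.41, so that these 3 genes stood above 77.5%, 84.8% and 85.9% of all genes.

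In quantile values CDK2, E2F1 and E2F7 were higher in DTE than in DT, where 16.2% of all genes were called higher and 18.2% lower. Quantile intensities of CDK2 were 130, 130 and 134 in DT and 210, 222 and 182 in DTE (0.64, adjusted p = 9.05e-05). Those of E2F1 were 80.4, 65.5 and 89.8 against 124, 139 and 121 (0.71, adjusted p = 2.0e-04). Those of E2F7 were 49.9, 48.4 and 53.1 against 91.1, 73.2 and 80.7 (0.69, adjusted p = 1.5e-04). The DTE and DT arrays of each of these 3 genes did not overlap on that scale. The share of all genes for which this held in quantile values was not counted. CDC25A measured -0.33 ± 0.15 in deposited values (adjusted p = 0.056) and 0.08 in quantile values (adjusted p = 0.65), with 1 DT array, at 26.0, within the range of the DTE arrays. It passed the threshold in deposited values without DT replicate 2 (-0.39, adjusted p = 0.048), E replicate 1 or 3 (-0.33 in both, adjusted p = 0.044 and 0.047) or DTE replicate 3 (-0.44, adjusted p = 0.024).

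The 8 E2F targets of S-phase entry showed the same dependence on scale. Between DTE and DT 3 of them fell in deposited values, with a median of -0.10, where 54.0% of all genes were called lower. In quantile values 6 were higher, with a median of 0.62, where 16.2% of all genes were called higher. CDC6 read 191 ± 15.7 in DT and 211 ± 5.57 in DTE. For the 8 genes of the RB family and MuvB core, 7 fell in deposited values (median -0.81). In quantile values 2 of these were lower and 1 higher (median -0.19), where 18.2% of all genes were called lower.

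**Figure D3:**
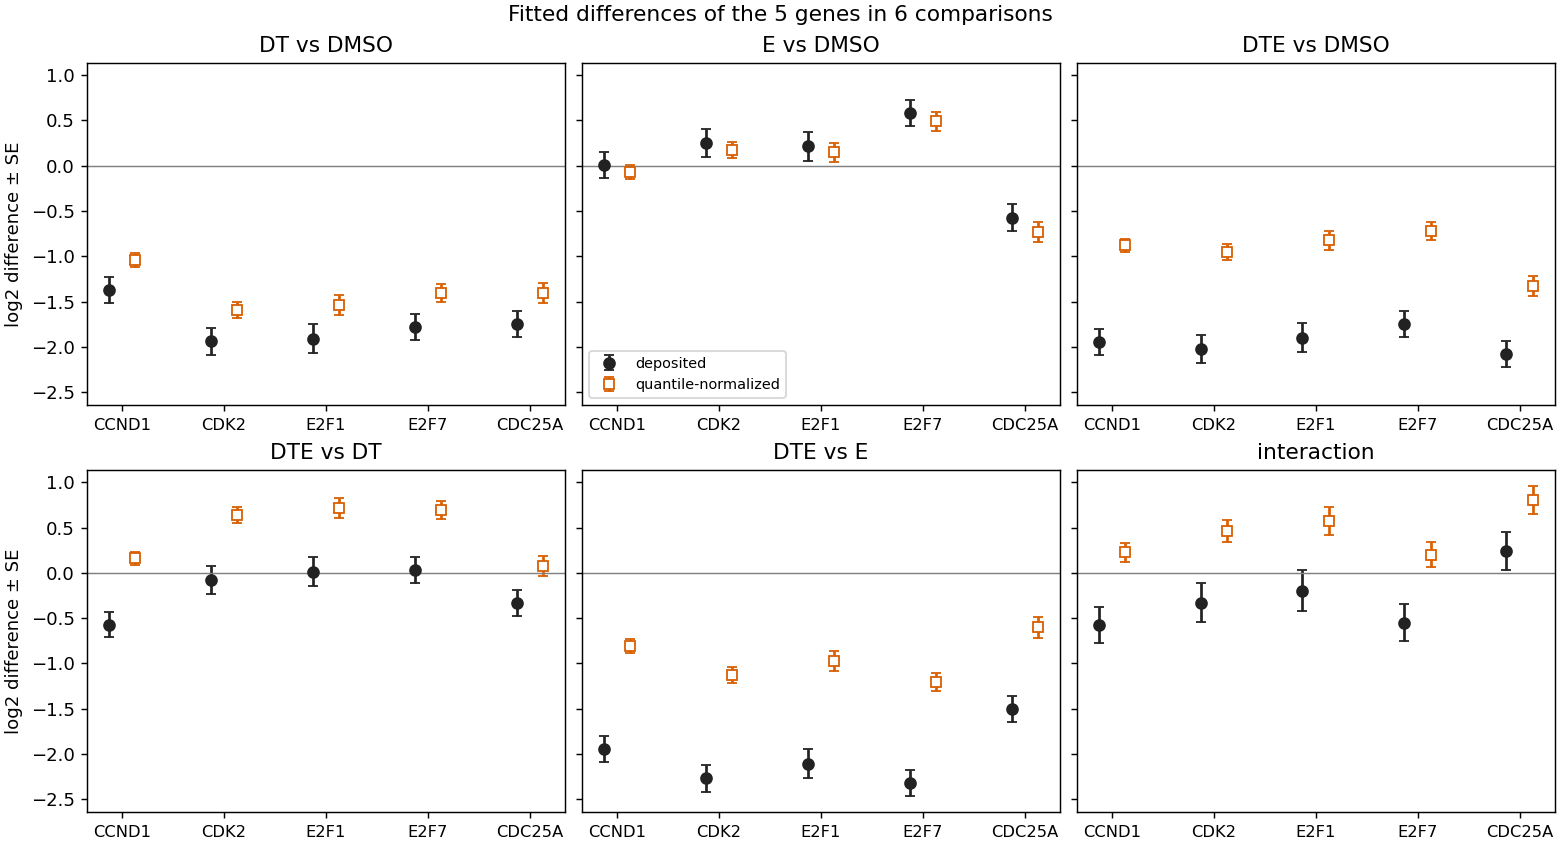
Fitted log2 difference ± SE (y axis) of the 5 genes in 6 comparisons, from deposited values (black circles) and quantile-normalized values (open orange squares). In DT vs DMSO all values lie between -1.04 and -1.94 on both scales. In DTE vs DT the 2 scales lie on different sides of 0 for CCND1, CDK2 and CDC25A. In the interaction they do so for CCND1, CDK2, E2F1 and E2F7.

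Against entinostat alone, DTE was lower for all 5 genes, from -1.50 for CDC25A to -2.32 for E2F7 in deposited values, where 78.5% of all genes were called lower. In quantile values all 5 were also lower, from -0.60 for CDC25A (adjusted p = 0.0019) to -1.21 for E2F7, where 10.8% of all genes were called lower. The comparisons of DT and of DTE with DMSO share the DMSO arrays, and those of DTE with DT and with E share the DTE arrays.

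The interaction asks whether entinostat acted alike with and without dabrafenib plus trametinib, as the difference between DTE and DT minus that between E and DMSO. In deposited values 2 of the 5 genes passed the threshold, both below 0, where 62.5% of all genes were called below 0 and the median was -0.63. CCND1 measured -0.57 ± 0.20 (adjusted p = 0.018), and its geometric mean in DTE was 147 against 218 if the effects on the log2 scale had added up. E2F7 measured -0.55 ± 0.20 (adjusted p = 0.023), at 50.1 against 73.2. In quantile values these were 0.23 (adjusted p = 0.29) and 0.20 (adjusted p = 0.51). CCND1 lost the call without DTE replicate 1 (-0.51, adjusted p = 0.055). E2F7 lost it without DMSO replicate 3 (-0.40, adjusted p = 0.077), DT replicate 1 or 3 (-0.51 and -0.50, adjusted p = 0.056 in both) or DTE replicate 2 (-0.49, adjusted p = 0.062). CDC25A measured 0.24 in deposited values (adjusted p = 0.31) and 0.80 in quantile values (adjusted p = 0.012), where 1.91% of all genes were called above 0. It stood above 98.8% of all genes in deposited values and above 99.5% in quantile values. 

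CDK2 measured -0.33 (adjusted p = 0.18) and E2F1 -0.20 (adjusted p = 0.44) in deposited values, with quantile values of 0.46 (adjusted p = 0.057) and 0.57 (adjusted p = 0.058). In the order of levels DT and DTE were the lowest groups for all 5 genes. DT stood above DTE for CCND1 in deposited values and the reverse held for its quantile means, at 219 and 244. For CDK2, E2F1, E2F7 and CDC25A the deposited DT and DTE arrays overlapped.

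CCND1 was then compared with each other gene on the same array, which removes any factor common to an array. Across both entinostat states, dabrafenib plus trametinib lowered CCND1 by less than CDK2, by 0.45 on the log2 scale, by less than E2F7, by 0.39, and by less than E2F1, by 0.35. Exact two-sided permutation p-values over the 400 regroupings within strata were 0.005, 0.005 and 0.015, and 0.01, 0.01 and 0.02 adjusted over 8 tests, where 0.005 is the smallest these regroupings allow. None of the 8 tests takes into account that the genes were chosen with earlier results of these data known. Without entinostat the differences were 0.57, 0.41 and 0.54, with all DT arrays above all DMSO arrays, and with it they were 0.32, 0.38 and 0.16. With a pseudocount of 16 the comparison with E2F7 was 0.18 (adjusted exact permutation p = 0.08).

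Entinostat moved CCND1 down relative to CDK2 (-0.37), E2F1 (-0.40) and E2F7 (-0.59), across both states of dabrafenib plus trametinib. The adjusted exact permutation p-values were 0.01, 0.016 and 0.01. All 3 E arrays lay below the DMSO mean in each of these differences. Relative to CDK2 and E2F7 they also lay below all DMSO arrays. Relative to E2F1 the groups overlapped, with E replicate 3 at -0.14 and DMSO replicate 2 at -0.16. Relative to E2F7 the E arrays lay at -0.80, -0.46 and -0.46. CCND1 against CDC25A averaged -0.03 for dabrafenib plus trametinib (exact p = 0.8) and 0.17 for entinostat (exact p = 0.26). These averages join unlike values. Dabrafenib plus trametinib gave 0.37 without entinostat and -0.44 with it, and entinostat gave 0.58 alone and -0.24 on top of the other agents. In quantile values the average for entinostat was 0.37 (adjusted exact permutation p = 0.04), and that for dabrafenib plus trametinib turned to 0.08.

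**Figure D4:**
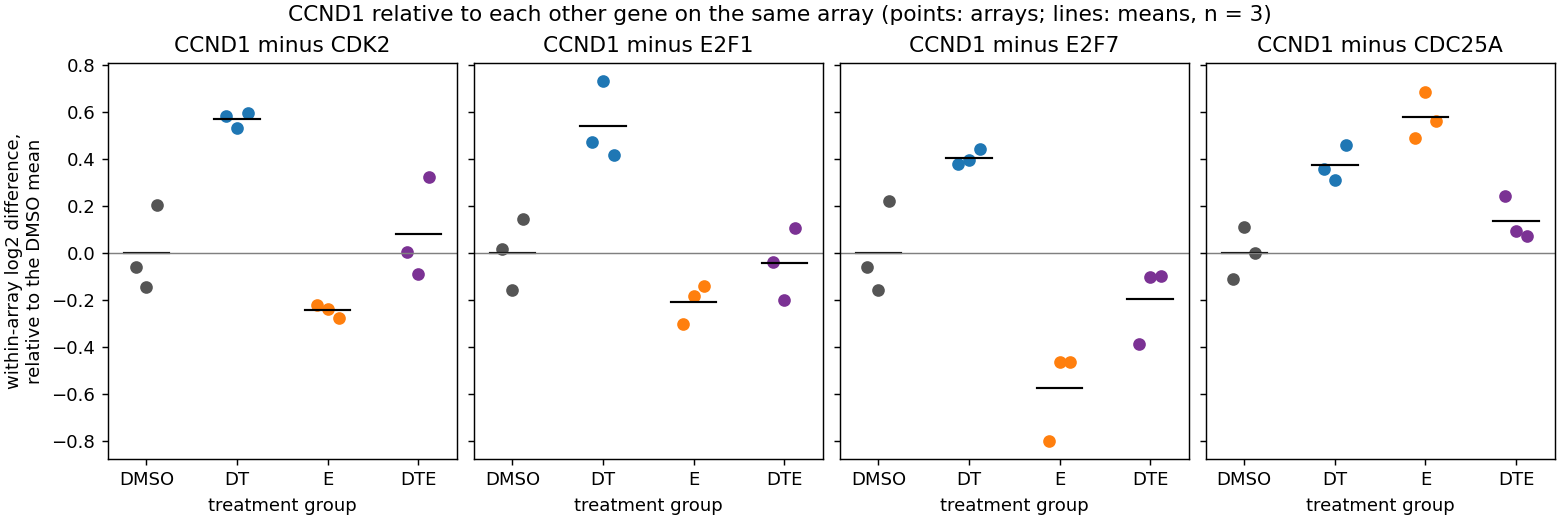
Within-array log2 difference of CCND1 minus CDK2, E2F1, E2F7 or CDC25A (y axis, relative to its DMSO mean) in the 4 groups. Points are arrays and lines are means (n = 3). The DT arrays lie above all DMSO arrays in all 4 panels, and the E arrays lie below the DMSO mean for CDK2, E2F1 and E2F7 and above it for CDC25A, at 0.49, 0.68 and 0.56.

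Likeness of pattern was measured as the root mean square difference over the 12 arrays, in quantile values centred on each gene's own mean, among all genes other than these 5. The genes nearest to CCND1 were NDC1, a nuclear pore protein, CHEK1, a checkpoint kinase, and PRC1, a spindle protein, at 0.07, 0.08 and 0.09 on the log2 scale, against a median of 0.51 over all genes. Those nearest to CDK2 were DTL, a substrate receptor for CDT1 degradation, the exonuclease EXO1 and MCM8, at 0.10, 0.11 and 0.15. DTL was also nearest to E2F1 (0.12), followed by HJURP and AMD1 (both 0.14). Nearest to E2F7 were SKA1 (0.11), CLSPN, which encodes the checkpoint mediator claspin (0.13), and KIF18A (0.14). Nearest to CDC25A were lamin B1, LMNB1 (0.13), the replicative helicase subunit MCM5 and TMPO (both 0.14). In deposited values the 3 nearest genes stayed the same for CDK2 and E2F1, 2 of 3 were shared for CCND1 and CDC25A, and 1 of 3 for E2F7.

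Among the 5 genes, CDK2 and E2F1 were most alike, at 0.13, and each was 0.18 from E2F7. CDC25A was farthest from E2F7, at 0.53, and nearest to CCND1, at 0.26. By this measure CCND1 and CDC25A each lay apart from CDK2, E2F1 and E2F7, with distances of 0.29 to 0.35 for CCND1 and 0.43 to 0.53 for CDC25A.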

How the data were processed

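The deposited table holds 1 linear intensity per probe set and array for 12 arrays. Per the submitters' processing notes the authors used RMA and Transcriptome Analysis Console, with no version or order given. The sources used here do not say how the arrays were rescaled to each other or whether the ERCC spike-ins named in the labels were used. Log2 of the deposited intensity was taken, with no pseudocount and no filter.

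A platform table and RefSeq symbols gave 14750 of 29398 probe sets (50.2%) a single gene name. Where a gene had several (156 genes), the probe set with the highest mean over the 12 arrays was used, which left 14582 genes. One limma model (version 3.58.1 under R 4.3.3, functions lmFit and eBayes) covered the 12 arrays, with the 4 group means as terms, and Benjamini-Hochberg adjustment ran separately in each of 6 comparisons. CCND1 was set against the other members with exact permutation tests over arrays. The limma fit of DT against DMSO was also run on simulated data. These data held no differences in array level, so that run cannot speak to the scaling of the arrays.

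The 5 genes and the lists were chosen with earlier results of these data known, so no count over them is independent support. The genes named are the 5, up to 3 per role group by adjusted p with DT and up to 2 each with E and in the interaction, a few fixed cell cycle genes, and the 3 most alike genes of each. Values of the genes chosen through the interaction are given only where the text describes them. Background was taken as the mean, over a group's arrays, of the level below which 95% of the dimmest 25% of genes lie, a rule chosen after earlier values were seen. The number of arrays limits the precision. Alternatives were other scalings of the arrays, a pseudocount of 16, other variance models, array weights, a filter on dim genes, other use of several probe sets, a replicate block, and leaving out each array. The 14648 probe sets not named for 1 gene were not used.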

Additional observations from a re-analysis of the deposited data

Results flagged for a closer look

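The interaction term compares the effect of entinostat with and without dabrafenib plus trametinib. In the limma fit on deposited values it passed the threshold for CCND1 (-0.57, adjusted p = 0.018) and E2F7 (-0.55, adjusted p = 0.023). For CCND1 the geometric mean in DTE was 147, and for E2F7 50.1. Of all genes 62.5% were called below 0 in this comparison, with a median of -0.63, and the DTE arrays had the lowest overall level of the 4 groups. By this deposited term CCND1 stood above 55.6% of all genes and E2F7 above 57.9%. In quantile values both genes changed sign, to 0.23 for CCND1 and 0.20 for E2F7, and neither passed the threshold. Groups of 3 arrays were not tested for outlying samples.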

How the results depend on the processing

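The counts of the 5 genes called in DT and DTE against DMSO and in DTE against E moved by less than 1.5 times under the alternatives run. In E against DMSO the total stayed at 2, but with median centring it was 2 lower, CDC25A and CCND1, in place of 1 lower and 1 higher. In DTE against DT 1 gene was lower in deposited values, 2 were lower when only the groups compared were fitted, with array weights or with the filter on dim genes, and 3, 3 and 4 were higher with quantile normalization, median centring and centring on the brighter genes. Leaving out 1 array gave 1 to 2 genes there and 1 to 2 in the interaction, where the 3 scalings gave 1, 1 and 3 genes above 0 in place of 2 below it. Of all genes 58.1% were called in DTE against DT in deposited values, and 34.4%, 49.8% and 57.7% under the 3 scalings. In the interaction these shares were 62.7%, and 4.11%, 17.4% and 20.7%. The cause of these changes was not tested.

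In the pathway list 8 genes were called in E against DMSO (4 lower and 4 higher, with 25.6% of all genes called). Quantile normalization gave 18 (15 lower, 31.5%), median centring 24 (22 lower, 37.8%), centring on the brighter genes 20 (16 lower, 31.6%) and array weights 20 (14 lower, 49.6%), in a weight estimate that stopped before it converged. In DTE against DT there were 29 (28 lower, 58.1%). The same scalings gave 21 (15 higher, 34.4%), 24 (13 lower and 11 higher, 49.8%) and 25 (19 higher, 57.7%). In the interaction there were 20 calls, all below 0, where 62.7% of all genes were called. The 3 scalings gave 9, 10 and 15 calls, all above 0, where 4.11%, 17.4% and 20.7% of all genes were called. Single values that changed sign and passed the threshold in deposited values or under the alternative were, with quantile normalization, 0.16 for CCND1 and 0.64 for CDK2 in DTE against DT, and 0.23 for CCND1 and 0.20 for E2F7 in the interaction. TFDP2 was 0.27 in DT and 0.16 in DTE against DMSO, LIN37 0.21 and CCNE1 0.0902 in DTE against DMSO. With median centring they were -0.28 for CCND1 and -0.25 for FZR1 in E against DMSO, 0.36 for CDK2 in DTE against DT, and 0.16 for CCND1 and 0.18 for E2F7 in the interaction. With centring on the brighter genes they were 0.23 for TFDP2 in DT against DMSO. In DTE against DMSO they were 0.0566 for CDKN2A, 0.16 for LIN37 and 0.0291 for TFDP2. In DTE against DT they were 0.0837 for CCND1, 0.57 for CDK2 and 0.32 for CDC25A. In the interaction they were 0.23 for CCND1, 0.47 for CDK2, 0.60 for E2F1 and 0.25 for E2F7. A further 10, 14 and 10 differences that passed it in neither also changed sign under the 3 scalings.

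No pairing of the arrays by replicate number was seen in the values. Arrays of the same number in different groups correlated at -0.22 to 0.13 in their deviations from the group means. Of these pairs 2 of 18 were above 0.1. Arrays of different number in different groups correlated at -0.14 to 0.27, with 8 of 36 pairs above 0.1. Whether arrays of the same number were processed together cannot be told from these values. With the replicate number as a block (the replicate block) the 5 genes gave 5 calls with DT, 2 with E and 5 with DTE against DMSO, and none of the 111 single differences changed its call. Of the others, 107 of 111 kept direction and call with the pseudocount, 105 of 106 with only the groups compared, where the interaction, which needs all groups, could not be fitted, and 101 of 111 with array weights, the other 10 gaining a call. Leaving out an array kept 1298 of 1332. Of the 8 within-array tests of CCND1, 6 passed the threshold in deposited values and with any array left out, 7 in quantile values and 5 with the pseudocount.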
